A study of Mus musculus with 4 samples.

Results

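Histone protein genes were examined in mouse E14 embryonic stem cells, as the 37 genes whose symbol names a histone among the 19938 genes that had a probe set of their own. A gene was taken where its probe set carried exactly 1 gene symbol and that symbol belonged to the H1, H2A, H2B, H3 or H4 families, and where a gene had several such probe sets the one with the highest mean was kept. VPA cells had received 0.5 mM valproic acid, an inhibitor of histone deacetylases, for 4 h (2 arrays), and untreated cells were harvested alongside them (2 arrays). All cells were of the same line and grew in serum and leukemia inhibitory factor on mitomycin-treated embryonic fibroblasts, whose RNA is therefore part of each sample. Total RNA was measured on one-colour Affymetrix arrays, and every value given here is a deposited log2 signal or a difference of such signals, VPA minus untreated. The labels number the arrays as replicates without saying that they came from separate cultures, so the p-values rest on a spread between arrays that may be no more than technical.

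Core histones H2A, H2B, H3 and H4 form the octamer around which DNA is wound, and the linker histone H1 binds where DNA enters and leaves it. Replication-dependent histone genes lie in clusters, are transcribed mainly in S phase, and give mRNAs that mostly end in a stem-loop in place of a poly(A) tail. Replication-independent genes encode variants that can be deposited outside S phase, and the lysines on the tails of the core histones are the substrates of the enzymes that valproic acid inhibits. Embryonic stem cells divide rapidly and spend much of their cycle in S phase.

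By class, 23 of the 37 genes were replication-dependent core histones (4 H2A, 9 H2B, 3 H3 and 7 H4), 5 were replication-independent core histones and 8 were linker histones. The H2bfm gene, an X-linked H2B gene of the germ line, fell in no class. Of the replication-dependent genes, 18 lie on chromosome 13, 4 on chromosome 3 and H4f16 on chromosome 6. Germ cell histones made up 6 of the 37 (H1f6, H1f7, H1f8, H2ac1, H2bc1 and H2bfm). For 9 members the mean signal lay below 3.79, the median of all probe sets, and these are called dim below. No filter on low values was applied, so all 37 were tested. Histone genes within a family are nearly identical in their coding sequence, so a probe set named for 1 gene may also bind mRNA of its neighbours.

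The promoters of 8 members are shown as examples. They are H4 and H2B genes with a low difference or a high mean signal, a pair of H1 genes, and H2az1. H2bc18 and H2bc3 were chosen for this after their values were seen. Each sequence is the 150 bases that end just before the annotated start, 5′ to 3′ on the strand of the gene, from RefSeq on GRCm38.p6. Capitals mark matches, on either strand, to CCAAT, to TATAAA, to the octamer ATTTGCAT known from H2B promoters, to AAACACA known from H1 promoters, and to GGTCCG, whose letters were chosen after the H4 sequences had been seen.
H4c3, chr13:23698459-23698608, minus strand: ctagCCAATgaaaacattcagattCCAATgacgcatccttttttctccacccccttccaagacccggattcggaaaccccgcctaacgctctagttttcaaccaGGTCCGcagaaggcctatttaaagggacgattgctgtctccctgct
H4c6, chr13:23551669-23551818, minus strand: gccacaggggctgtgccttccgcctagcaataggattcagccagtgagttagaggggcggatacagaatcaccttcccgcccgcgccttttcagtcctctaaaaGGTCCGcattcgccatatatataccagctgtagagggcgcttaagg
H4c4, chr13:23581418-23581567, plus strand: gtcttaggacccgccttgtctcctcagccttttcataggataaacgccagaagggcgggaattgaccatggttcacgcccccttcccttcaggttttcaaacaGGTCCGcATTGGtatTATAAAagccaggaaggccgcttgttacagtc
H2bc18, chr3:96269550-96269699, plus strand: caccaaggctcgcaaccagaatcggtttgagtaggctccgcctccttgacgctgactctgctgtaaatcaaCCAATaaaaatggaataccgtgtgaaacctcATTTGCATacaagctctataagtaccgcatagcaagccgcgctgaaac
H2bc3, chr13:23746584-23746733, plus strand: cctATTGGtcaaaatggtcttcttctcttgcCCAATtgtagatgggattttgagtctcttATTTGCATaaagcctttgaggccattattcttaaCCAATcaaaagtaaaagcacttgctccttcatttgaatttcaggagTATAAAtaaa
H1f3, chr13:23554882-23555031, plus strand: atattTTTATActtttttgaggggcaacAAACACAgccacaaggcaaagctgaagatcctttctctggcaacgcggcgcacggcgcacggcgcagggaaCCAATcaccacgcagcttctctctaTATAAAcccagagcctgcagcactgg
H1f5, chr13:21780626-21780775, minus strand: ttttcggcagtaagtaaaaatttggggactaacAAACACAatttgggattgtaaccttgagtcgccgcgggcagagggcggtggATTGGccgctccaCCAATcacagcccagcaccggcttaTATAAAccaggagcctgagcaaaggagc
H2az1, chr3:137864337-137864486, plus strand: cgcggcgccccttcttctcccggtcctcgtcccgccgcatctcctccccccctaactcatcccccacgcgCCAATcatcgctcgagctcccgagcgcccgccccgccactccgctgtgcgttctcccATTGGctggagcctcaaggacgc

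The letters GGTCCG begin 46 bases before the start in H4c3 and H4c6 and 47 bases before it in H4c4. Over the 250 bases before the start, 5 of the 6 replication-dependent H4 genes with a promoter entry held them, against 7.69% of the 27025 promoters in the table. The octamer was found in 5 of 7 replication-dependent H2B and 3 of 4 replication-dependent H2A promoters, against 1.81% of all. In H2bc18 it begins 48 bases and in H2bc3 90 bases before the start. The H1 letters AAACACA were found in 4 of 8 linker promoters, against 7.2% of all, and begin 122 bases before the start in H1f3 and 117 bases before it in H1f5. CCAAT was found in 25 of the 32 members with an entry, against 37.5% of all promoters. TATAAA was found in 11 of 19 replication-dependent and in 0 of 4 replication-independent promoters, against 14.3% of all. Such matches describe the letters and say nothing of what binds there.

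After 4 h with VPA no histone gene passed the test. In limma with Benjamini-Hochberg adjustment over all 35556 probe sets, 0 of the 37 genes were called, as were 0.0% of all probe sets, and the smallest adjusted p among the members was 0.472. With limma's trend and robust moderation the number called was also 0. At an unadjusted p under 0.05, 1 member was higher with VPA (H3c15) and 1 was lower (H4c3), beside 5.9% of all genes higher and 2.71% lower. With single arrays left out, these counts ran from 0 to 2 in each direction. Both VPA arrays lay above both untreated arrays in 7 of 37 members (24.1% of all genes) and below both in 3 of 37 (18.1% of all genes). The members were split between 17 higher and 20 lower values, with a median difference of −0.02.

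**Figure D1:**
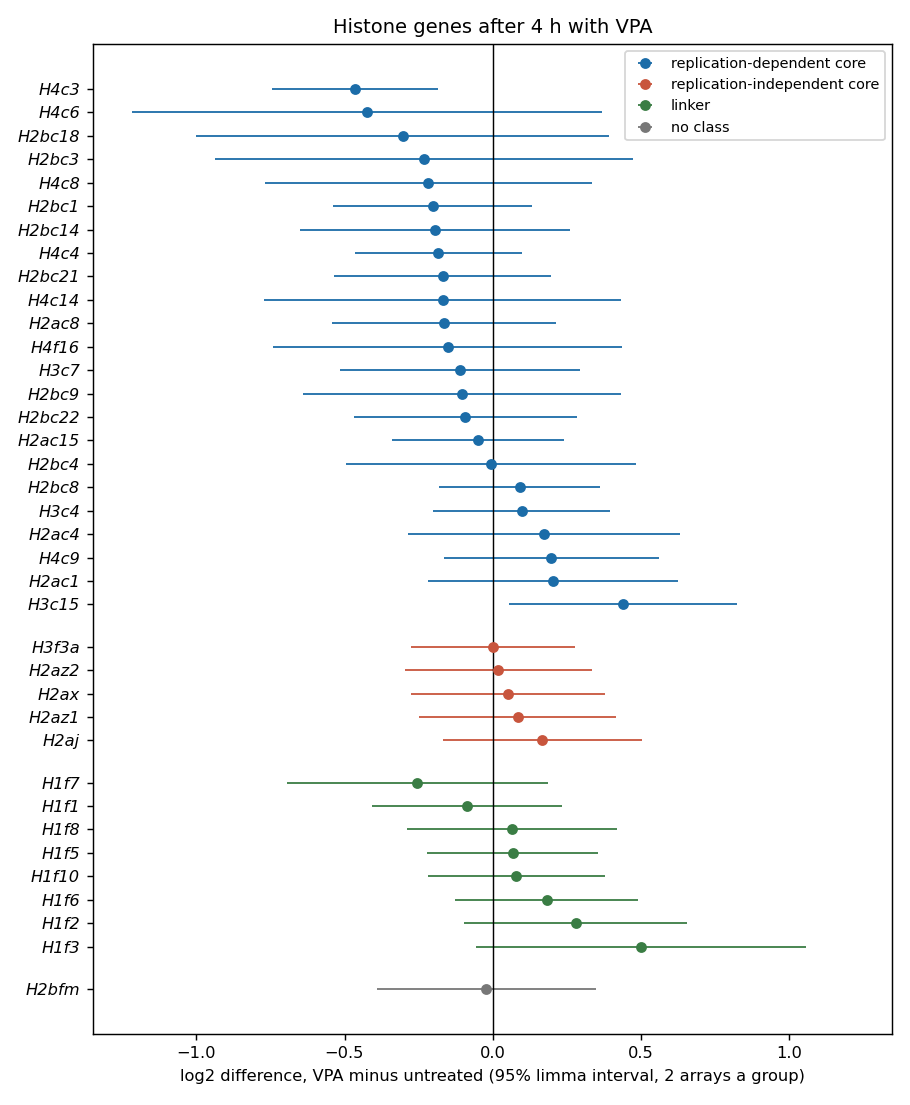
Log2 difference, VPA minus untreated, for each of the 37 histone genes, ordered within class, with the 95% interval from limma (2 arrays a group). Only the intervals of H4c3 and H3c15, 2 of the 37, do not reach 0.

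The class medians lay on different sides of 0. Of the replication-dependent core genes 17 of 23 were lower with VPA, with a median difference of −0.15 and a range from −0.46 to 0.44, beside a median of 0.02 over all genes. With the probe sets shared among replication-dependent genes added, the median was −0.08. All 5 replication-independent core genes were higher, by 0.0025 to 0.17 with a median of 0.05. However, H2az2 was lower after a second quantile normalization and H3f3a after median centring. The H3f3a probe set counted here is dim, and of 4 brighter sets that carry H3f3a with a further symbol, 3 were lower. Without untreated replicate 2 the class turned, with 2 of 5 higher and a median of −0.02, and without VPA replicate 2, 3 of 5 were higher. Of the linker genes 6 of 8 were higher, with a median of 0.07 and a range from −0.25 to 0.50. Of the 37 members 28 were not dim. Among all 11290 genes that were not dim, 6881 were higher and the median was 0.06. The replication-independent and linker medians were near that value. In 32 of the 37 genes the difference between the groups was smaller than the wider of the 2 gaps between replicates, which held for 70.1% of all genes. The 5 exceptions were H4c3, H4c4, H3c15, H2bc8 and H1f6. Of these, H3c15 and H2bc8 are dim, and H1f6, with a mean of 3.82, lies just above the dim threshold. In RNA of a whole culture, fewer cells in S phase and less histone mRNA per cell cannot be told apart.

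The direction of the replication-dependent class rested on untreated replicate 2. Relative to the mean of the 4 arrays, the median over the 23 genes was 0.04 on VPA replicate 1 and −0.14 on VPA replicate 2, against −0.11 on untreated replicate 1 and 0.21 on untreated replicate 2. The highest value of a gene was on untreated replicate 2 in 14 of 23 genes (27.6% of all genes) and the lowest on VPA replicate 2 in 13 of 23 (25.3% of all genes). Replicates of each group lay further apart than over all genes: the median gap between the VPA arrays was 0.26 and between the untreated arrays 0.30, against 0.12 and 0.14 over all genes. Without untreated replicate 2 the median of the class was 0.05, and 14 of 23 genes were higher with VPA. Without that array, 4 of 7 H4 genes were higher, with a median of 0.02, and 5 of 9 H2B genes, with a median of 0.08. Without VPA replicate 2 the median of the class was −0.05, with 13 of 23 lower.

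**Figure D2:**
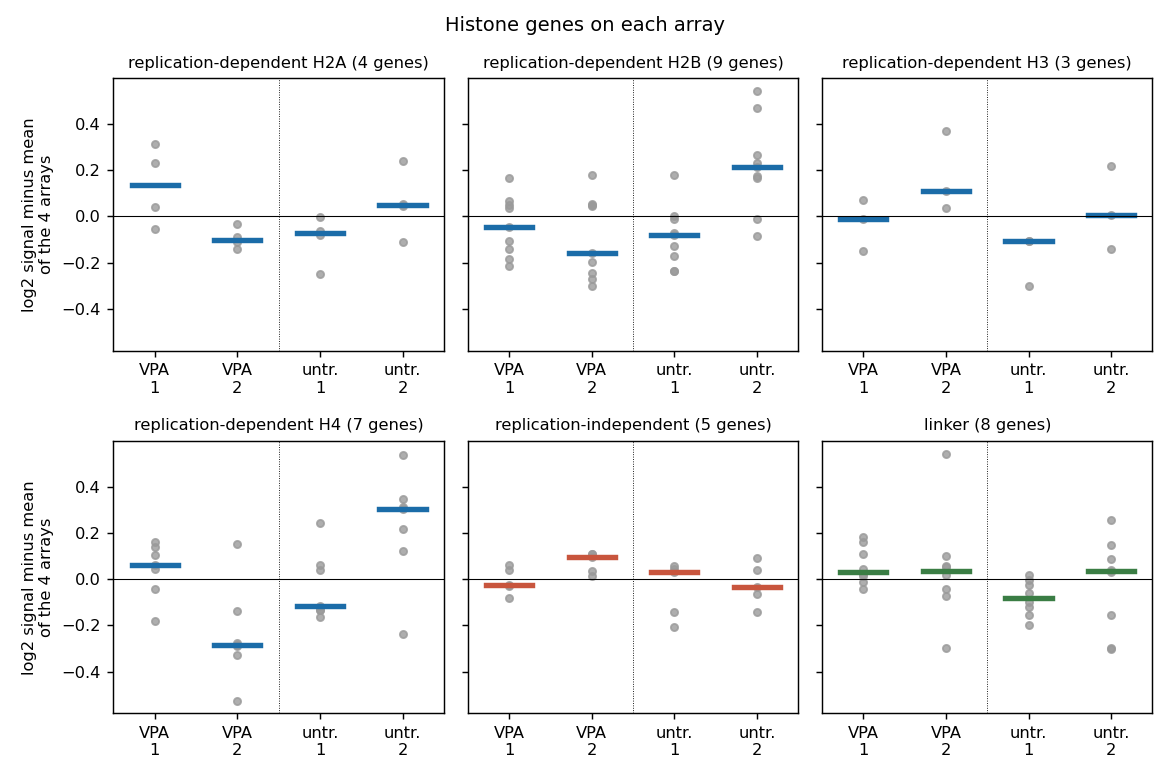
Log2 signal of each histone gene minus its mean over the 4 arrays, by family and class; points are genes, bars are medians, and VPA arrays stand left of untreated arrays. In the replication-dependent H4 and H2B panels untreated replicate 2 is the high array and VPA replicate 2 the low one, with medians of 0.30 and −0.28 for H4.

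Markers of the other cells in the dish were read beside this class. All 10 embryonic stem cell markers were above the dim threshold on average, as were 12 of 16 markers of the fibroblast feeders (Ccdc80, Lum, Postn and S100a4 were dim). Of the stem cell markers 4 were higher and 6 lower with VPA, with a median difference of −0.16. Both VPA arrays lay below both untreated arrays for 5 of the 10 (18.1% of all genes). In limma 3 of the 10 were lower at an unadjusted p under 0.05 (2.71% of all genes) and 0 were called. These 3, named for their small p in these same data, were Sall4, Nanog and Utf1. Sall4 differed by −0.43 ± 0.11, Nanog by −0.48 ± 0.14 and Utf1 by −0.33 ± 0.12 (SE). The 4 higher markers were Sox2, Tdgf1, Dppa5a and Dppa4, with differences of 0.20, 0.12, 0.11 and 0.02. Pou5f1 differed by −0.11, with overlapping groups. The summed linear signal of the 16 feeder markers was 3125 and 3130 on the VPA arrays, against 3209 and 3335 on the untreated arrays. Most of that sum comes from Vim, Fn1 and Sparc, with mean log2 signals of 10.23, 9.98 and 9.01. The next brightest marker, Col1a1, had 6.69. The sum is therefore no measure of the amount of feeder RNA. Of the 16, 12 were lower with VPA (46.2% of all genes). Untreated replicate 2 was the highest array for 8 of the 16 (27.6% of all genes). The part of either marker list in the histone values was not tested.

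Among the H4 genes, which encode the partner of H3 in the tetramer at the core of the nucleosome, 6 of 7 were lower with VPA, with a median difference of −0.18. H4c3 had log2 signals of 5.64 and 5.53 in VPA cells, against 6.06 and 6.04 in untreated cells. The groups did not overlap and the replicates lay close together. The difference was −0.46 ± 0.11 (SE), with a 95% interval from −0.74 to −0.18, and an adjusted p of 0.472 in limma. Its direction held when any single array was left out, with values from −0.52 to −0.41, and limma's unadjusted p moved between 0.0281 and 0.0529, the highest without VPA replicate 2. H4c4 had 10.14 and 10.05 in VPA cells, against 10.25 and 10.31 in untreated cells. Here too the VPA arrays were the lower ones and the difference was −0.18 ± 0.11 (adjusted p = 0.66 in limma).

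The other H4 genes followed another order. H4c6 had 9.34 and 8.71 in VPA cells, against 9.12 and 9.77 in untreated cells. H4c14 had 9.63 and 9.14 in VPA cells, against 9.33 and 9.77 in untreated cells. In both, untreated replicate 2 was highest and VPA replicate 2 lowest, with the other arrays between them, so that the groups overlapped. Their differences were −0.42 ± 0.31 and −0.17 ± 0.23 (SE), and leaving out single arrays gave −0.75 to −0.10 for H4c6 and −0.41 to 0.08 for H4c14. The same order of arrays, untreated replicate 2 above VPA replicate 1 above untreated replicate 1 above VPA replicate 2, held in H4c8 and H4f16. It was seen in 9 of the 23 replication-dependent genes in all, against 5.27% of all genes. The order was read from these values, and a probe set may bind mRNA of several histone genes, so the 9 may not be independent. H4c9 was the H4 gene with a higher value: it had 5.55 and 5.66 in VPA cells, against 5.55 and 5.27 in untreated cells, a difference of 0.20 ± 0.14 (SE).

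H2B genes, whose product pairs with H2A, were lower with VPA in 8 of 9 cases, with a median of −0.17. H2bc18 had 6.54 and 6.45 in VPA cells, against 6.41 and 7.19 in untreated cells. H2bc3 had 7.38 and 7.01 in VPA cells, against 7.07 and 7.78 in untreated cells. In each, untreated replicate 2 alone stood above the other 3 arrays, and the untreated replicate 1 value lay within or below the VPA values. Their differences were −0.30 ± 0.27 and −0.23 ± 0.27 (SE). H2bc1, the testis H2B gene, had 5.59 and 5.48 in VPA cells, against 5.63 and 5.85 in untreated cells. Its groups did not overlap and its difference was −0.20 ± 0.13. The dim H2bc21 differed by −0.17 ± 0.14. H2bc8, also dim, was the exception in direction: it had 2.85 and 2.87 in VPA cells, against 2.73 and 2.80 in untreated cells.

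H2A and H3 genes of the replication-dependent class showed no common side. Of the 4 H2A genes 2 were higher and 2 lower. H2ac1, the testis H2A gene, had 8.36 and 8.10 in VPA cells, against 7.88 and 8.17 in untreated cells. H2ac4 had 7.83 and 7.38 in VPA cells, against 7.46 and 7.41 in untreated cells. In both genes VPA replicate 1 was the highest array and the groups overlapped, with differences of 0.20 ± 0.16 and 0.17 ± 0.18 (SE). Of the 3 H3 genes, H3c15 was the one at an unadjusted p under 0.05. It had 3.03 and 3.33 in VPA cells, against 2.66 and 2.81 in untreated cells, all below the dim threshold. The VPA arrays were both the higher ones, by 0.44 ± 0.15 on average (95% interval from 0.06 to 0.83, adjusted p = 0.51 in limma), and leaving out single arrays gave 0.29 to 0.59. Its unadjusted limma p was then 0.154 without VPA replicate 2, 0.132 with the first untreated array left out, and 0.0563 with the other one left out. The 13 members not described by the rule for named genes differed by between −0.30 and 0.10.

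Other probe sets carry the symbols of many histone genes at once, and their values were set beside those of the single genes. There were 32 histone probe sets with several symbols, of which 24 were shared by many genes of the H2A, H2B, H3 or H4 family. The 2 H2A sets among them also carry symbols outside the replication-dependent class, among them H2ax. The 10 sets shared by 12 H3 genes had signals between 11.79 and 12.15 on VPA replicate 1 and between 11.64 and 12.02 on VPA replicate 2, against 11.52 to 11.95 on untreated replicate 1 and 11.74 to 12.07 on untreated replicate 2. The 5 sets shared by 11 H4 genes had 11.38 to 11.72 and 11.12 to 11.46 in VPA cells, against 11.16 to 11.53 and 11.47 to 11.79 in untreated cells. The 7 sets shared by 14 or 15 H2B genes had 9.33 to 10.46 and 9.14 to 10.24 in VPA cells, against 9.12 to 10.23 and 9.59 to 10.68 in untreated cells.

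On all 24 of these shared sets VPA replicate 1 exceeded VPA replicate 2 and untreated replicate 2 exceeded untreated replicate 1. Over all genes these orders held in 50.84% and 50.57%. The groups overlapped on each of the 24. Of all 35556 probe sets, VPA lay above without overlap on 7713 and below on 6639. The H3 sets were all higher with VPA, by 0.05 to 0.09, with VPA replicate 1 the highest array and untreated replicate 1 the lowest. The H4 sets were all lower, with differences from −0.05 to −0.09, and the H2B sets were all lower, with differences from −0.11 to −0.20, and untreated replicate 2 was the highest array in both. The H2A sets, 2 in number, differed by 0.02 and 0.07. These sets overlap in their genes, 4 of the 32 repeat the values of another set exactly, and they count as views of the same transcripts.

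**Figure D3:**
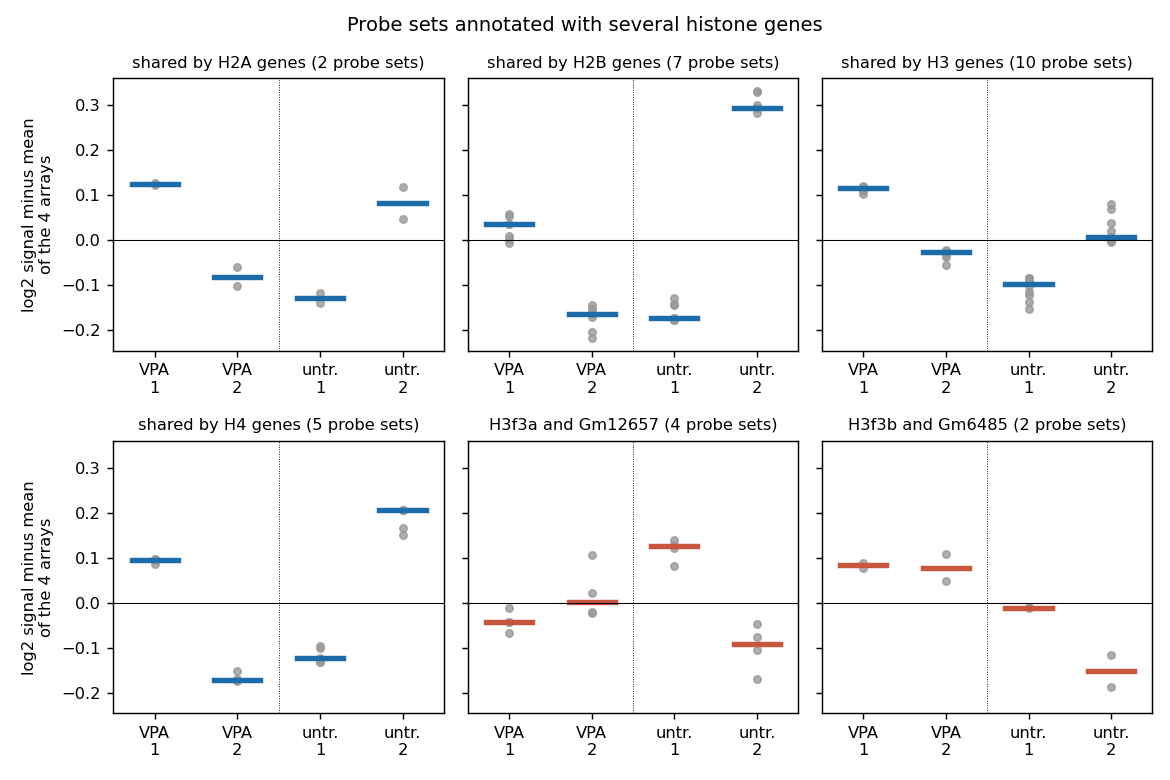
Log2 signal minus the mean of the 4 arrays for probe sets that carry several gene symbols; points are probe sets, bars are medians, and VPA arrays stand left of untreated arrays. On every H2A, H2B, H3 and H4 set, VPA replicate 1 lies above VPA replicate 2 and untreated replicate 2 above untreated replicate 1. Over all genes these orders held in 50.84% and 50.57%.

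Replication-independent core histones differed little. H2az1, which encodes the H2A.Z variant found beside active promoters, had 10.76 and 10.89 in VPA cells, against 10.84 and 10.64 in untreated cells. H2ax, whose product is phosphorylated beside DNA breaks, had 9.24 and 9.22 in VPA cells, against 9.06 and 9.30 in untreated cells. For both, the groups overlapped, and the differences were 0.08 ± 0.13 and 0.05 ± 0.13 (SE). The 95% interval for H2az1 ran from −0.25 to 0.42. A further H2az1 probe set differed by 0.08. H2az2, the gene of the other H2A.Z protein, differed by 0.02 ± 0.12.

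H2aj, an H2A gene outside the large clusters, was the member of this class whose groups did not overlap. It had 6.40 and 6.45 in VPA cells, against 6.14 and 6.38 in untreated cells, a difference of 0.17 ± 0.13 (SE). The single-symbol probe set of H3f3a, which encodes the replacement H3 histone, was dim and differed by 0.0025 ± 0.11. Brighter probe sets for the replacement H3 genes carried a further symbol each. The 4 sets of H3f3a with Gm12657 differed by −0.06 to 0.04, with untreated replicate 1 the highest and untreated replicate 2 the lowest array in each. The 2 sets of H3f3b with Gm6485 had 11.24 to 11.44 and 11.21 to 11.46 in VPA cells, against 11.15 to 11.34 and 11.05 to 11.16 in untreated cells. On both of these sets the VPA arrays lay above the untreated arrays, with differences of 0.13 and 0.20.

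Linker histone genes were led by H1f3 and H1f2, which encode somatic H1 subtypes of the chromosome 13 cluster. H1f3 had 3.38 and 3.96 in VPA cells, against 3.22 and 3.12 in untreated cells. H1f2 had 6.42 and 6.34 in VPA cells, against 6.25 and 5.94 in untreated cells. The VPA arrays were the higher ones for both genes, although H1f3 is dim and its VPA replicates lay 0.59 apart. The differences were 0.50 ± 0.22 and 0.28 ± 0.15 (SE), with adjusted p of 0.56 and 0.618 in limma. Leaving out single arrays gave 0.21 to 0.79 for H1f3, lowest without VPA replicate 2, and 0.12 to 0.44 for H1f2, lowest without untreated replicate 2. H1f5, a further somatic subtype, had 10.87 and 10.91 in VPA cells, against 10.75 and 10.89 in untreated cells. H1f1 had 9.49 and 9.43 in VPA cells, against 9.44 and 9.65 in untreated cells. These overlapped between the groups and differed by 0.07 ± 0.11 and −0.09 ± 0.12.

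H1f10, a linker gene expressed outside S phase, differed by 0.08 ± 0.12 (SE). H1f6, the testis H1 gene, had 3.99 and 3.84 in VPA cells, against 3.799 and 3.67 in untreated cells, and its groups did not overlap. Its difference was 0.18 ± 0.12. H1f7, the spermatid gene, differed by −0.25 ± 0.17 and H1f8, the oocyte gene, by 0.07 ± 0.14, both with overlapping groups. Without the 3 germ cell genes the linker median was 0.08, with 4 of 5 genes higher. Without untreated replicate 1 the median over all 8 linker genes was 0.00, with 4 higher and 4 lower.

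**Figure D4:**
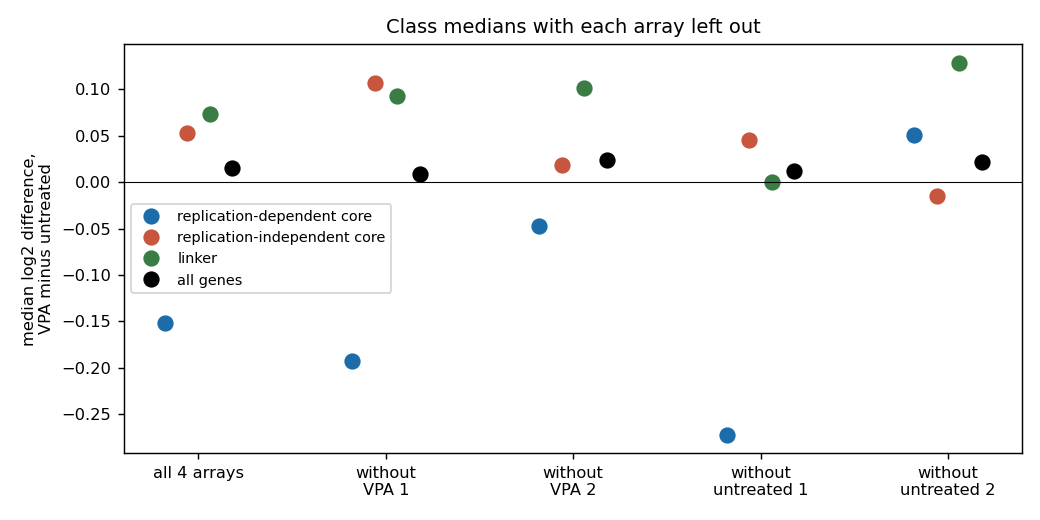
Median log2 difference, VPA minus untreated, of each histone class and of all genes, with all 4 arrays and with each array left out. The replication-dependent median lies between −0.27 and −0.05 except without untreated replicate 2, where it is 0.05.

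Proteins that make, process and deposit histones were read from a list of 40 genes, of which 37 had a probe set of their own. Of these, 18 were higher with VPA and 19 lower, with a median of −0.0040. In all, 0 were called in limma. At an unadjusted limma p under 0.05, 2 were higher and 1 was lower, beside 5.9% of all genes higher and 2.71% lower. Asf1b, a chaperone that hands H3-H4 to the deposition machinery, had 8.92 and 8.93 in VPA cells, against 8.34 and 8.32 in untreated cells. The replicates were nearly equal and the groups far apart, with a difference of 0.60 ± 0.10 (SE) and an adjusted p of 0.462 in limma. Chaf1b, a subunit of the assembly factor CAF-1 that works behind the replication fork, had 7.94 and 8.10 in VPA cells, against 7.54 and 7.48 in untreated cells. Both VPA arrays were higher, by 0.51 ± 0.12 (adjusted p = 0.472 in limma).

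Srcap, the remodeller that places H2A.Z in chromatin, had 8.11 and 8.17 in VPA cells, against 8.61 and 8.78 in untreated cells. Both VPA arrays were lower, with a difference of −0.55 ± 0.12 (SE, adjusted p = 0.472 in limma). Npm1, a nucleolar histone chaperone, had 10.79 and 11.01 in VPA cells, against 11.14 and 11.34 in untreated cells. It too was lower on both VPA arrays, with a difference of −0.33 ± 0.14. Slbp, which binds the stem-loop of histone mRNA, had 8.81 and 8.87 in VPA cells, against 8.81 and 8.40 in untreated cells. Untreated replicate 2 was the lowest array, and the difference was 0.24 ± 0.17. A further Slbp probe set had 8.77 and 8.74 in VPA cells, against 8.63 and 8.504 in untreated cells, a difference of 0.19 ± 0.11 with both untreated arrays below both VPA arrays. Npat, which activates histone gene transcription at the start of S phase, had 7.67 and 7.62 in VPA cells, against 7.53 and 7.35 in untreated cells, a difference of 0.20 ± 0.12. Cenpa, the centromeric H3, differed by 0.20 ± 0.11. Chaf1a, the large subunit of CAF-1, differed by 0.04, while Hira and Daxx, which deposit replacement H3, differed by −0.0040 and 0.07.

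**Figure D5:**
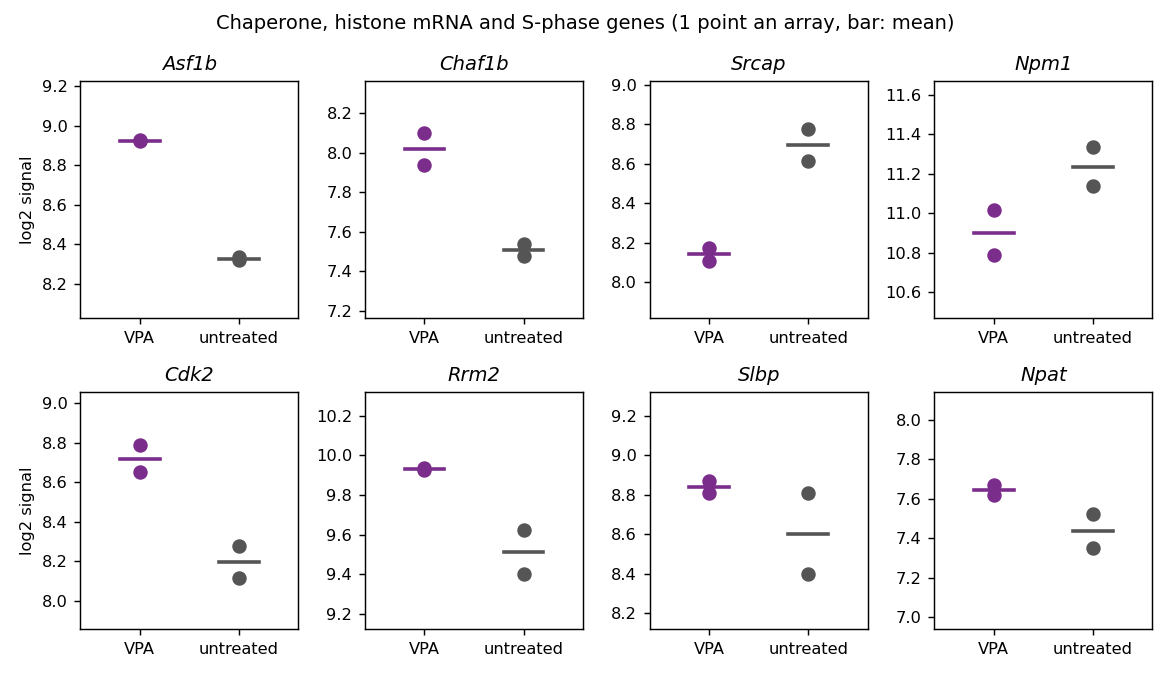
Log2 signal of 8 genes that act on histones or in S phase; each point is an array, bars are group means, VPA stands left of untreated, and every panel spans the same number of log2 units. The groups do not overlap in any of the 8 panels, although for Slbp the nearest arrays of the groups are both at 8.81. Asf1b, Chaf1b, Srcap, Npm1, Cdk2 and Rrm2 were chosen for small p in these same data, so their separation follows from that choice. Over all genes, VPA lay above without overlap in 24.1% and below in 18.1%.

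S-phase genes, 33 of 34 with a probe set of their own, were higher with VPA in 21 and lower in 12 cases. Their median was 0.07. All 33 were above the dim threshold, and of the 11290 genes above it 6881 were higher, with a median of 0.06. In all, 0 were called in limma. At an unadjusted limma p under 0.05, 2 were higher and 0 lower, beside 5.9% of all genes higher and 2.71% lower. A further E2f3 probe set, outside this count, differed by −0.49 ± 0.18 (SE, unadjusted p = 0.0446 in limma), with both VPA arrays below both untreated arrays. Cdk2, the kinase that drives entry into S phase, had 8.65 and 8.79 in VPA cells, against 8.28 and 8.11 in untreated cells. Rrm2, a subunit of ribonucleotide reductase, had 9.92 and 9.94 in VPA cells, against 9.62 and 9.40 in untreated cells. In both genes the VPA arrays were the higher ones, by 0.52 ± 0.12 and 0.42 ± 0.13 (SE). Without VPA replicate 2, limma's unadjusted p for Cdk2 was 0.0561. For Rrm2 it was 0.0805 without VPA replicate 1, 0.0877 without VPA replicate 2 and 0.076 without untreated replicate 2. Prim1, the primase subunit, and Cdc6, which licenses origins, differed by 0.45 ± 0.18 and 0.23 ± 0.12. Untreated replicate 2 was the lowest array for 18 of the 33 genes, against 30.1% of all genes and 38.8% of those not dim. It was the highest for 14 of the 23 replication-dependent histone genes, against 27.6% of all genes. The S-phase medians relative to the 4-array mean were 0.03 and 0.06 on the VPA arrays, against −0.0008 and −0.08 on the untreated arrays.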

How the data were processed

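Per the submitters' processing notes, the authors ran RMA in Affymetrix Expression Console 1.1, and what they deposited is a log2 signal for each probe set. RMA corrects background, quantile-normalizes and summarises probes. Whether all arrays were processed jointly is not given in the sources. Groups follow the treatment in the labels. Of 35556 probe sets, 21789 had 1 symbol, 1621 several and 12146 none here. By gene ID, 21698 single-symbol probe sets matched RefSeq GRCm38.p6, with 0 symbols changed.

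All probe sets entered a single limma 3.58.1 fit (R 4.3.3, lmFit and eBayes) with treatment as the only term, two-sided tests and Benjamini-Hochberg adjustment at 0.05. The fit has 2 residual degrees of freedom, and moderation added 2.93. With 2 arrays a group, the smallest p of an exact permutation test is 0.33, and the number of arrays limits the precision. Class medians, counts and array orders are descriptions without a test. The fit was checked on simulated data, where its median estimates had to lie close to the planted shifts. Those shifts were larger than any difference given for a histone gene. The check therefore says nothing of calling differences of that size.

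The members and lists were chosen with earlier results of these data known. Named were all linker and replication-independent genes, the 5 replication-dependent genes of smallest p in each direction and the 4 brightest, the 4 list genes of smallest p in each list, and Slbp, Npat, Asf1b, Chaf1a, Hira, Daxx and Cenpa. Same-numbered arrays did not deviate together (correlation −0.097 over probe sets), so replicate numbers were not taken as pairs. Alternatives were a second quantile normalization, median centring, leaving out dim probe sets, trend and robust moderation, a replicate block, averaging the probe sets of a gene, adding shared probe sets, and leaving out each array. Promoters came from RefSeq GRCm38.p6, which holds an entry for 32 of the 37 members.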

Additional observations from a re-analysis of the deposited data

How the results depend on the processing

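No probe set was called under any alternative run, with smallest adjusted p between 0.321 and 0.93. Leaving out single arrays moved the replication-dependent median between −0.27 and 0.051, and the highest of these came without untreated replicate 2. The same step moved the replication-independent median between −0.015 and 0.11 and the linker median between 0.0 and 0.13. At an unadjusted p under 0.05, it gave 0 to 2 histone genes higher and 0 to 2 lower, in fits that assume the lone array of a group varies like those of the other group. With probe sets shared among replication-dependent genes added, the replication-dependent median was −0.081. With dim probe sets left out, 0 histone genes were higher, because H3c15 is dim. With the replicate number as a block, 0 probe sets were called, the smallest adjusted p was 0.677, and the class medians were unchanged by construction at −0.15, 0.053 and 0.074.

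Of 38 named genes, 26 kept their direction under every alternative run. A second quantile normalization gave −0.026 for Chaf1a, −0.0095 for Daxx and −0.026 for H2az2, and median centring gave −0.0032 for H3f3a. Leaving out single arrays gave −0.21 to 0.28 for Chaf1a, −0.19 to 0.017 for H1f1, −0.0013 to 0.16 for H1f10, −0.055 to 0.19 for H1f8, −0.053 to 0.40 for H2ac4, −0.063 to 0.17 for H2ax, −0.015 to 0.19 for H2az1, −0.070 to 0.11 for H2az2, −0.030 to 0.035 for H3f3a, −0.41 to 0.078 for H4c14 and −0.040 to 0.033 for Hira. The cause of these changes was not tested. Leaving out germ cell genes, chosen after seeing the data, gave −0.15 for the replication-dependent and 0.081 for the linker median.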

Other observations

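Tk1, the thymidine kinase of the salvage pathway, was chosen after its values were seen. It had log2 signals of 7.44 and 6.93 in VPA cells, against 7.03 and 7.43 in untreated cells, a difference of −0.04. The replicates of each group thus lay further apart than the group means. A further Tk1 probe set had 6.18 and 5.77 in VPA cells, against 5.57 and 6.06 in untreated cells. Its difference was 0.16, also smaller than either gap between its replicates. A probe set shared by H1f4 and H2bc6 had 4.31 and 4.16 in VPA cells, against 3.86 and 4.18 in untreated cells. A dim probe set shared by H4c11 and H4c17 had 3.60 and 3.10 in VPA cells, against 3.51 and 3.18 in untreated cells. The groups overlapped on both. By position, the 4 replication-dependent genes on chromosome 3 had a median difference of −0.17, and the 18 on chromosome 13 a median of −0.11.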
